A study of Mus musculus with 16 samples.

Results

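The genes described here are 34 genes of the postsynaptic density, out of 32285 genes counted in single nuclei of the mouse dentate gyrus (DG). They were chosen by name, not by a measured value, but with earlier results of these data known. All 34 were found in the count matrices. The list holds the MAGUK scaffolds *Dlg1*, *Dlg2*, *Dlg3*, *Dlg4*, *Magi1* and *Magi2*, the linkers *Dlgap1*, *Dlgap2*, *Dlgap3* and *Dlgap4*, and the deep scaffolds *Shank1*, *Shank2*, *Shank3*, *Homer2* and *Homer3*. It also holds the exchange factors *Kalrn*, *Trio*, *Iqsec1*, *Iqsec2* and *Iqsec3*, the adaptors *Lrrc7*, *Cnksr2* and *Baiap2*, 7 auxiliary subunits of AMPA receptors and 4 genes of calmodulin and phosphatase signalling.

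The postsynaptic density is the protein sheet beneath an excitatory synapse. MAGUK proteins hold glutamate receptors at the membrane, DLGAP proteins tie the MAGUKs to SHANK, and SHANK and HOMER reach the actin skeleton and internal calcium stores. Auxiliary subunits (TARPs, cornichons and SHISA proteins) ride with AMPA receptors and set their trafficking and kinetics, while exchange factors for small GTPases remodel the spine. Granule cells (GCs) of the DG receive cortical input on spiny dendrites and project to CA3, whereas most GABAergic neurons receive excitation on dendrites with few spines.

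Nuclei came from frozen, microdissected DG tissue of 4 WT mice (genotype VV) and 4 V321L mice (genotype LL), with 2 females and 2 males of each genotype. V321L mice are homozygous for a missense change in *Nrg1*, in every cell that carries the gene. The labels give neither strain nor age, and each mouse gave 1 Multiome library in which RNA and accessible chromatin were read from the same nucleus. Replicates are named by sex and number, as in WT F1.

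After filtering, 17015 nuclei remained, 9830 from WT and 7185 from V321L mice. Neurons were assigned to 4 gates by the UMIs (unique molecular identifiers, counted RNA molecules) of marker panels that contain no member. The granule gate held 6989 WT and 4250 V321L nuclei, the CA3 type gate 621 and 213, the CA1 type gate 47 and 256, and the GABAergic gate 211 and 156. The CA1 type gate of WT F1 held only 2 nuclei and gave no value, so that 7 mice entered every CA1 type result. *Prox1* and *Gad2* belong to the panels that define the gates, so their levels follow from the gating and do not check it. *Prox1*, a granule lineage factor of the granule panel, ranged from 220 to 285 CPM (UMIs per 1000000 UMIs of the gate and mouse) in granule nuclei and did not exceed 8.02 in CA3 type nuclei. *Gad2*, a GABA-synthesizing enzyme, ranged from 379 to 696 CPM in GABAergic nuclei and stayed at or under 6.66 in granule nuclei. *Nectin3*, a CA3 marker in no panel, ranged from 148 to 942 CPM in CA3 type nuclei and reached at most 38.9 in granule nuclei. *Dkk3*, also in no panel, had means of 130 CPM in CA3 type, 137 in CA1 type and 7.89 in granule nuclei. It therefore did not separate the 2 CA gates. Among CA1 type markers in that gate, *Man1a* ranged from 410 to 1262 CPM, *Wfs1* from 8.23 to 233 and *Spink8*, in no panel, from 0 to 184. Marker levels of the CA1 type gate thus differed widely between mice. Among the nuclei, 171 barcodes occurred in more than 1 library, where independent draws from the 735027 barcodes present give 170 shared pairs.

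The genotypes differed in ways that touch every comparison between them. Per mouse, the median granule nucleus carried 1155.5 to 2034 UMIs in WT mice but 3259 to 4706 in V321L mice. Its median mitochondrial share was 0.0696% to 0.137% in WT mice but 0.301% to 1.08% in V321L mice. *Nrg1* RNA, which a missense change need not alter and which therefore does not check the labels, was at 774 ± 97.7 CPM in WT and 510 ± 91.4 CPM in V321L granule nuclei (SD, n = 4 each). Free RNA, which can enter any droplet, was read from barcodes with at most 100 UMIs and comes from all cells of the tissue together.

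Promoters of 27 of the 34 members were found in the RefSeq table for the build GRCm38.p6. Those of *Nrgn* and *Shank3* are shown because both genes were more accessible in granule than in GABAergic nuclei, summed over the peaks near their start sites. Only the first also passed the RNA test between these gates. Capitals mark matches to the GC box GGGCGG on either strand. *Nrgn* is printed from the minus strand and *Shank3* from the plus strand, both 5′ to 3′ and ending before the transcribed part.
Nrgn, chr9:37552905-37552995: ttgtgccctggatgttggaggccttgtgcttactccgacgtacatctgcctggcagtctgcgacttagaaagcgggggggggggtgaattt
Shank3, chr15:89499358-89499607: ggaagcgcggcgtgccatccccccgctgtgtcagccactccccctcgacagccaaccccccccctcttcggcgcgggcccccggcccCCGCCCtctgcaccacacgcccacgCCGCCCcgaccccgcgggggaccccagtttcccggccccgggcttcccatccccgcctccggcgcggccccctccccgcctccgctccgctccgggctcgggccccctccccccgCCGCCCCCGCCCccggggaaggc

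The 91 bases of *Nrgn* overlapped a peak in 8 of 8 libraries and held no GC box, which 9.42% of the same stretch of 32851 promoters held. The 250 bases of *Shank3* overlapped a peak in 5 of 8 libraries and held 4 GC boxes, with at least 1 in 32.7% of all promoters. They lie before the first *Shank3* start site (position 89499623), while its accessibility also counts peaks near the last (89556702). Whether the printed bases are the more accessible part was not tested. *Shank3* bases were 82.4% G or C, against a median of 52.4%. Searches of both strands for the CCAAT box (CCAAT), the TATA box (TATAAA) and the element TGACG bound by CREB gave 0 matches in either printed stretch. Bases outside these stretches were not searched. Over all promoters 12.3%, 4.80% and 4.79% held these motifs in the 91 bases compared with *Nrgn*. In the 250 bases compared with *Shank3*, 33.8%, 12.4% and 17.8% did. Most promoters thus also lacked each motif.

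Granule nuclei were first compared with the 3 other neuron gates within mice, over both genotypes. *Shisa9* and *Cnih3*, both auxiliary subunits of AMPA receptors, were higher in granule nuclei than in each other gate. *Homer3* was higher in CA3 type nuclei, *Cacng2* in CA3 type and GABAergic nuclei, *Iqsec3* in each other gate, and *Homer2* in CA1 type and GABAergic nuclei. Against GABAergic nuclei most members were higher in granule nuclei, led by *Baiap2* and *Ppp3ca*. Of 34 members, 14 were higher and 9 lower than in CA3 type nuclei, where 22.7% of 6210 tested genes were higher and 18.7% lower. Against CA1 type nuclei 8 were higher and 7 lower, beside 18.6% and 12.7% of all genes, and 20 were higher and 6 lower than in GABAergic nuclei, beside 23.6% and 19.7%. The median log2 fold change (here log2 change) of the members was 0.12, 0.17 and 0.68 in the 3 contrasts, against 0.05, 0.11 and 0.07 over all genes. These calls are from edgeR's quasi-likelihood test with mouse as a block, at a Benjamini-Hochberg adjusted p under 0.05.

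**Figure D1:**
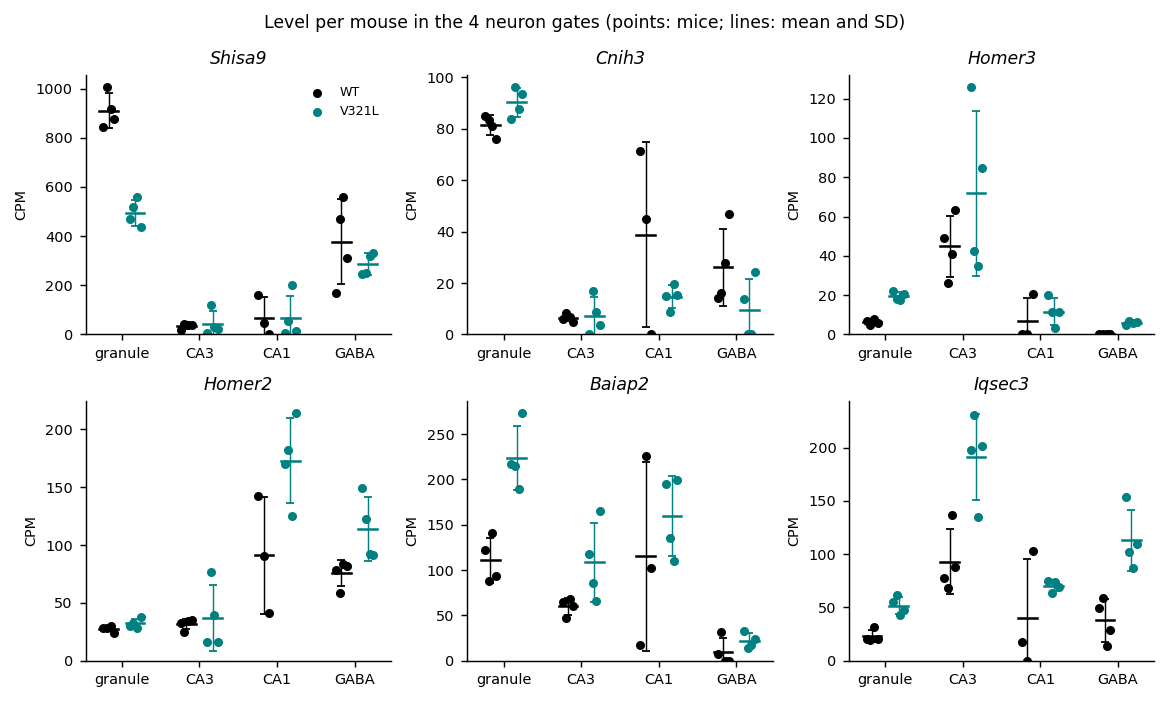
Level in CPM of 6 members in the granule, CA3 type, CA1 type and GABAergic gates. Each point is 1 mouse (WT black, V321L teal, 4 each, 3 WT mice in the CA1 type gate), and lines give the mean and SD; *Shisa9* and *Cnih3* sit highest in granule nuclei of every mouse, and *Homer3* in CA3 type nuclei.

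*Shisa9* encodes an auxiliary AMPA receptor subunit, also called CKAMP44, that slows recovery from desensitization. Its level in granule nuclei ranged from 436 through a median of 701 to 1006 CPM over 8 mice. In CA3 type nuclei the lowest, median and highest values were 5.35, 33.6 and 120 CPM, and in GABAergic nuclei 170, 314 and 557 CPM. Granule nuclei were higher in 8 of 8 mice in both pairs and in 7 of 7 against CA1 type nuclei. The log2 change was 4.48 against CA3 type (standard error, SE, 0.368, edgeR adjusted p = 1.56e-11), 3.31 against CA1 type and 1.16 against GABAergic nuclei.

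*Cnih3*, a cornichon that keeps AMPA receptors open longer, ranged from 76.0 to 96.2 CPM in granule nuclei and from 0 to 17.1 in CA3 type nuclei, without overlap. It did not exceed 71.2 CPM in CA1 type and 46.8 CPM in GABAergic nuclei. The granule level was the higher one in every mouse and pair of gates, with log2 changes of 3.79 against CA3 type (SE 0.292, edgeR adjusted p = 3.43e-12), 2.26 against CA1 type and 2.34 against GABAergic nuclei. The related *Cnih2*, the main hippocampal cornichon, was not called against CA3 type (log2 change 0.27, edgeR adjusted p = 0.286) or CA1 type nuclei (-0.11, adjusted p = 0.757). It was called at 0.74 against GABAergic nuclei, a call that was lost when free RNA was subtracted.

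The TARPs split. *Cacng2* (stargazin, which brings AMPA receptors to the membrane) ranged from 22.2 to 53.1 CPM in granule nuclei and lay lower there than in the CA3 type and GABAergic nuclei of 8 of 8 mice, with log2 changes of -1.25 (SE 0.159, edgeR adjusted p = 1.13e-07) and -1.51 (SE 0.188, adjusted p = 6.56e-08). In WT mice the mean of *Cacng2* was 112 CPM in free RNA, against 70.2 in CA3 type and 87.7 in GABAergic nuclei. In V321L mice it was 51.7 CPM in free RNA, against 104 and 132 in these gates. How much of the *Cacng2* level of each gate is free RNA was not tested. *Cacng3*, its close relative, was higher in granule than in GABAergic nuclei of 8 of 8 mice, by 1.55 on the log2 scale. *Cacng8* was higher than in GABAergic nuclei by 0.78 and had log2 changes of 0.02 and 0.17 against CA3 and CA1 type nuclei, neither called. *Shisa6*, which holds AMPA receptors at the synapse, was lower in granule than in CA3 type nuclei (-0.63, edgeR adjusted p = 0.0281) and higher than in GABAergic nuclei (1.07). Its CA3 type call was lost when WT F1, WT F2, WT M2 or V321L F1 was left out.

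Among the deep scaffolds, the HOMER genes, whose proteins link SHANK to metabotropic receptors and calcium stores, had opposite patterns. *Homer3* reached 22 CPM in granule nuclei and ranged from 26.0 through 45.8 to 126 CPM in CA3 type nuclei, so that the gates did not overlap. Its log2 change against CA3 type nuclei was -2.33 (SE 0.201, edgeR adjusted p = 4.37e-11). In GABAergic nuclei of WT mice it was at 0 in 4 of 4 mice. Their sums in that gate held only 71771 to 186667 UMIs, so 0 does not show that *Homer3* was absent. *Homer2* ranged from 24.4 to 37.8 CPM in granule nuclei and from 58.9 to 149 in GABAergic nuclei, again without overlap, and the log2 changes were -1.64 against GABAergic (SE 0.214, adjusted p = 1.63e-07) and -2.27 against CA1 type nuclei (SE 0.202, adjusted p = 1.66e-10). In WT mice the mean of *Homer2* was 83.7 CPM in free RNA, against 27.6 in granule and 75.6 in GABAergic nuclei. In V321L mice it was 43.5 CPM in free RNA, against 32.3 and 114. How much of the *Homer2* level of each gate is free RNA was not tested.

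*Shank1* was lower in granule nuclei than in each other gate of every mouse. Its log2 changes were -0.78, -1.16 and -0.83 against CA3 type, CA1 type and GABAergic nuclei. In WT mice its mean was 399 CPM in free RNA, against 41.0 in granule, 55.4 in CA3 type and 56.3 in GABAergic nuclei. In V321L mice it was 129 CPM in free RNA, against 62.6, 138 and 136 in these gates. How much of the *Shank1* level of each gate is free RNA was not tested. *Shank3* was lower than in CA3 type nuclei of 8 of 8 mice (-0.98, edgeR adjusted p = 2.66e-06) and had a log2 change of 0.01 (SE 0.222) against GABAergic nuclei. *Shank2* was called only against GABAergic nuclei among these 3 contrasts, at 0.58. *Dlgap1* was higher in granule than in CA3 type nuclei of 8 of 8 mice (0.91, adjusted p = 3.5e-06), and *Dlgap4* was lower in 8 of 8 (-0.90, adjusted p = 5.69e-07). *Dlgap3* was lower than in CA1 type nuclei (-0.48), although its sign turned to 0.07 in the WT mice alone, and *Dlgap2* passed the test in none of the 3 contrasts.

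*Dlg2* (PSD-93) and *Dlg4* (PSD-95) were called only against GABAergic nuclei in these contrasts, with log2 changes of 0.45 and 0.66. *Dlg1* (SAP97) was likewise called there (0.69, edgeR adjusted p = 0.0413), a call lost without any of WT F1, WT F2, WT M2, V321L F1, V321L F2 or V321L M2. *Dlg3* (SAP102) was higher than in CA3 and CA1 type nuclei by 0.65 and 0.86. *Magi1* was higher in granule than in CA3 type nuclei (1.26, adjusted p = 0.000192) and lower than in GABAergic nuclei of 8 of 8 mice (-0.81, adjusted p = 0.00746). *Magi2*, which also binds neuroligins and receptors, was lower than in CA3 type nuclei (-0.42, adjusted p = 0.0119, lost without WT M2).

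*Baiap2* (IRSp53, an actin and membrane adaptor) ranged from 87.9 through 165 to 273 CPM in granule nuclei and from 0 through 15.5 to 32.6 CPM in GABAergic nuclei. The gates did not overlap in any mouse, and the log2 change was 3.26 (SE 0.253, edgeR adjusted p = 4.12e-12). *Ppp3ca*, the catalytic subunit of calcineurin, ranged from 3291 to 4073 CPM in granule and from 428 to 1003 in GABAergic nuclei, a log2 change of 2.38 (SE 0.166, adjusted p = 3.88e-13). *Cnksr2* (a scaffold of Ras signalling) and *Kalrn* (kalirin, an exchange factor that enlarges spines) were higher than in GABAergic nuclei of 8 of 8 mice, by 1.94 and 1.93.

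*Cnksr2* was lower in granule than in CA3 type (-0.53) and CA1 type nuclei (-0.65). *Lrrc7* (densin) was higher than in CA3 type and GABAergic nuclei, by 0.35 and 1.17. *Iqsec1* and *Iqsec3*, exchange factors for Arf6, went the other way: *Iqsec1* was lower than in GABAergic nuclei of 8 of 8 mice (-0.94, edgeR adjusted p = 6.24e-08) and *Iqsec3* lower than in CA3 type nuclei of 8 of 8 mice (-1.96, adjusted p = 1.08e-12). *Iqsec1* was also lower than in CA1 type nuclei (-0.99, edgeR adjusted p = 1.6e-07), and *Iqsec3* than in GABAergic nuclei (-1.06, adjusted p = 3.06e-05). *Iqsec2* was higher than in CA3 type (0.51) and GABAergic nuclei (1.53). *Trio*, the relative of *Kalrn*, was called in none of the 3 contrasts.

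The 4 signalling genes were higher than in CA3 type and GABAergic nuclei, and all but *Nrgn* were higher than in CA1 type nuclei. *Ppp1r9a* (neurabin, which ties protein phosphatase 1 to actin) ranged from 418 to 512 CPM in granule nuclei, above every value of the other 3 gates except that of WT M2 in the CA1 type gate (452 CPM). Its log2 changes were 1.0, 0.76 and 1.08 against CA3 type, CA1 type and GABAergic nuclei. *Nrgn* (neurogranin, which binds calmodulin at low calcium) was higher by 0.87 and 1.81 than in CA3 type and GABAergic nuclei, and had 0.42 (edgeR adjusted p = 0.0613) against CA1 type nuclei. *Ppp1r1a*, an inhibitor of protein phosphatase 1, was higher by 1.28, 0.68 and 1.86. Without the mouse as a block, the calls of *Nrgn* and *Ppp1r1a* against CA3 type and GABAergic nuclei were lost. In WT mice *Nrgn* was at 902 CPM in free RNA, against 163 in granule, 92.1 in CA3 type and 55.6 in GABAergic nuclei. In V321L mice it was at 4098 CPM, against 1313, 717 and 385. *Ppp1r1a* was at 43.0 CPM in WT and 589 in V321L free RNA, against 20.3 and 343 in granule nuclei. How much of the level of these 2 genes in each gate is free RNA was not tested.

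**Figure D2:**
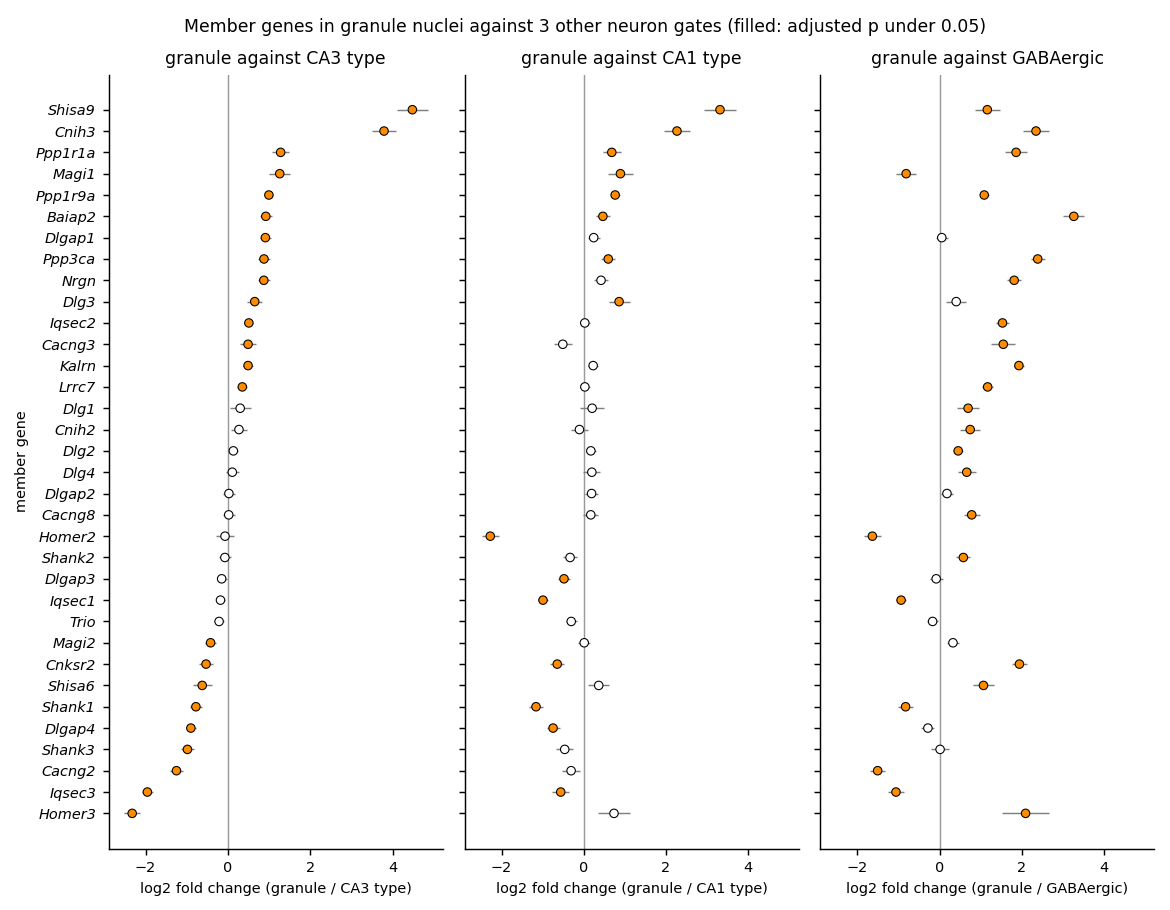
Log2 fold change of the 34 members in granule nuclei against CA3 type, CA1 type and GABAergic nuclei (x axis), ordered by the CA3 type contrast. Bars are standard errors and filled points passed an adjusted p under 0.05; *Shisa9* at 4.48 and *Homer3* at -2.33 are the ends of the CA3 type contrast, and 20 points are filled to the right against GABAergic nuclei.

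Fewer members were called when nuclei under 1000 UMIs were left out and all others thinned to 1000 UMIs. Then 3 members were lower than in CA3 type and 11 higher than in GABAergic nuclei. The parts of lower depth and of fewer nuclei in this were not tested. The share of all genes called after thinning was not counted. Nuclei of the CA1 type gate came mostly from V321L mice, and 2 members were higher and 2 lower than in CA1 type nuclei when the WT mice were fitted alone. Calls also lost without 1 mouse were those of *Cacng3* against CA3 type nuclei (0.49, lost without any mouse but WT F1 and V321L M1), *Lrrc7* against CA3 type (V321L F2), *Dlg4* against GABAergic (V321L M2) and, against CA1 type nuclei, *Dlg3* (V321L M1), *Dlgap3* and *Ppp1r1a* (V321L M1 or M2). Against CA1 type nuclei *Baiap2* (0.46) kept its call only without WT M1 or WT M2, *Iqsec3* (-0.56) only without WT F2, WT M1 or V321L F2, and *Magi1* (0.89) only without WT F1, WT F2 or V321L M1.

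Of 54 other postsynaptic genes on a list, 39 were tested between gates, and 14 were higher and 9 lower in granule than in CA3 type nuclei. *Tiam1* (an exchange factor for Rac, 4.49), *Sipa1l2* (4.08) and *Rasgrf2* (3.58) had the largest log2 rises, and *Neto2* (an auxiliary subunit of kainate receptors, -4.27), *Magi3* (-2.74) and *Grip1* (an AMPA receptor linker, -1.70) the largest falls. Against CA1 type nuclei 8 were higher, led by *Sipa1l2* (2.62), *Tiam1* (2.58) and *Rasgrf2* (2.35), and 7 lower, among them *Neto2* (-2.37) and *Homer1* (-1.77). Against GABAergic nuclei 22 were higher, led by *Tanc1* (3.89), *Synpo* (spine apparatus protein, 3.07) and *Wasf1* (2.47), and 8 lower, led by *Grip1* (-4.59), *Neto2* (-3.23) and *Lin7a* (-2.10).

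Promoter accessibility of the members was compared between the same gates, for the 24 members with a peak within 1 kb of an annotated start site in every library, of which 22 passed the filter on low counts. Against GABAergic nuclei *Nrgn*, *Ppp1r1a* and *Iqsec1* were called in the same direction in chromatin and RNA, and *Shank3* and *Dlgap2* in chromatin alone. Against GABAergic nuclei 4 members were more accessible in granule nuclei (*Nrgn*, *Shank3*, *Dlgap2* and *Ppp1r1a*) and 1 less (*Iqsec1*), beside 2.38% and 1.48% of 11198 genes. Against CA3 type nuclei 1 was more accessible (*Ppp1r1a*) and 0 less, beside 1.3% and 1.28%. In either direction 3 of 22 members had an unadjusted p under 0.05 there, beside 1235 of 11198 genes. Against CA1 type nuclei 0 were more accessible and 2 less (*Iqsec1* and *Dlg4*), beside 0.438% and 0.348%. In that contrast 4 of 22 members had an unadjusted p under 0.05, beside 920 of 11198 genes. The median log2 change of the 22 members was -0.04, 0.20 and 0.13 against CA3 type, CA1 type and GABAergic nuclei, and 0.00, 0.09 and 0.02 over all genes.

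For *Nrgn*, granule nuclei gave between 151 and 387 ATAC counts per mouse, or 31.6 to 64.1 per 1000000 counts in peaks (ATAC CPM). GABAergic nuclei gave at most 6 counts per mouse, or 0 to 49.2 ATAC CPM, and the granule value was the higher in 8 of 8 mice. The log2 change was 1.89 (SE 0.366, edgeR adjusted p = 5.94e-05), beside 1.81 for its RNA.

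*Iqsec1* was less accessible in granule than in GABAergic nuclei of 8 of 8 mice, at 8.53 to 17.1 against 9.91 to 112 ATAC CPM, a log2 change of -1.78 (SE 0.341, edgeR adjusted p = 4.6e-05) beside -0.94 for its RNA. *Ppp1r1a* was more accessible than in GABAergic nuclei by 1.28 and than in CA3 type nuclei by 0.78 (adjusted p = 0.0352), and the latter call was lost without WT F2, WT M1, WT M2 or V321L M1.

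*Shank3* ranged from 36.1 to 68.6 ATAC CPM in granule and from 0 to 36.3 in GABAergic nuclei (log2 change 1.65, SE 0.314, edgeR adjusted p = 4.08e-05), while its RNA had a log2 change of 0.01. That RNA value pools genotypes whose means went opposite ways. In WT mice *Shank3* RNA was at 32.4 CPM in granule and 18.8 in GABAergic nuclei, and in V321L mice at 51.0 and 64.8. The WT GABAergic sums held only 2 to 4 *Shank3* UMIs per mouse. The genotype effect in GABAergic nuclei exceeded that in granule nuclei by 1.31, which was not called (edgeR adjusted p = 0.372). *Dlgap2* was more accessible by 1.42 (adjusted p = 0.00432), beside 0.18 for its RNA. *Dlg4* had a log2 change of -1.09 against CA1 type nuclei (adjusted p = 0.0396), beside 0.20 for its RNA. With windows of 200 bases, 1 member was called more accessible than in GABAergic nuclei, where 4 were with windows of 1 kb. The calls of more accessible promoters against GABAergic nuclei thus depended on the window. GABAergic nuclei gave at most 14 ATAC counts per mouse for *Shank3*, which limits the precision of its value.

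**Figure D3:**
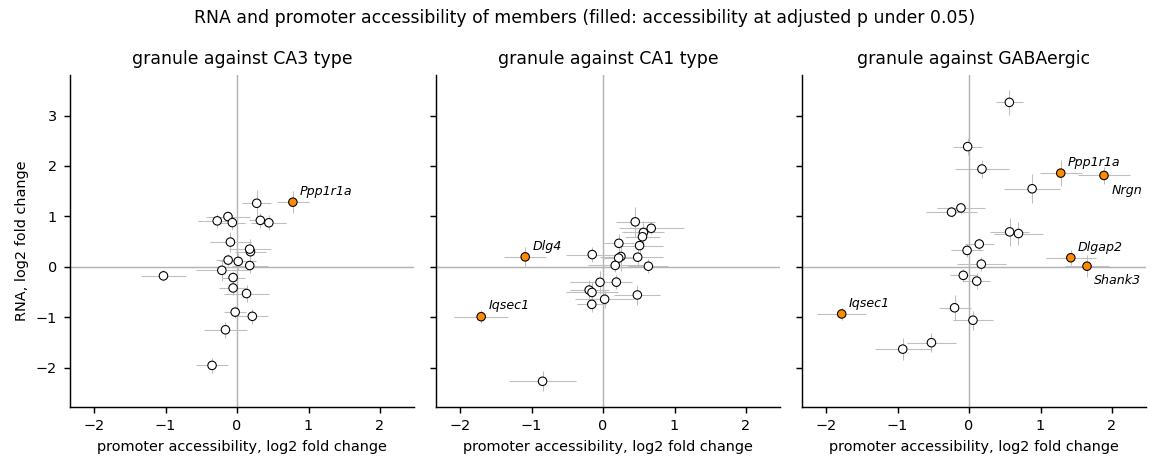
Log2 fold change of promoter accessibility (x axis) against that of RNA (y axis) for 22 members in granule nuclei against each other gate, with standard errors. Filled points passed the accessibility test; *Nrgn* and *Ppp1r1a* lie high on both axes against GABAergic nuclei, and *Shank3* and *Dlgap2* lie to the right with RNA near 0.

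V321L mice were then compared with WT mice within each gate. In granule nuclei *Ppp1r1a*, *Cnih2*, *Nrgn*, *Homer3*, *Dlg4*, *Iqsec3* and *Baiap2* were higher in V321L mice, and 18 members were lower. Of these 18, *Dlg2*, *Shisa9*, *Cnksr2*, *Shisa6* and *Magi2* had log2 changes below -1 after edgeR's TMM scaling. The 7 higher and 18 lower members of 34 stand beside 38.6% of 12593 genes higher and 32% lower, and the median was -0.33 for the members and 0.10 for all genes. When library size replaced the TMM scaling, the median of all genes moved to 0.54 and 14 members were higher and 12 lower. The fold changes below are therefore relative to the TMM scale, and are not the log2 ratios of the CPM printed beside them. The share of all genes called was not counted under library size, so these counts have no background beside them. In that fit the calls of *Kalrn*, *Iqsec1* and *Ppp1r9a* were lost. The signs of *Shank2*, *Cacng3* and *Cnih3* turned, as did those of *Dlg3*, *Homer2*, *Iqsec2* and *Cacng8*, which had not been called. In CPM, which are not on the TMM scale, the mean and SD of *Cnih3* were 81.3 ± 3.92 for the 4 WT mice and 90.3 ± 5.63 for the 4 V321L mice, so that its fall is one relative to other genes. Mice were of 1 genotype per library, with depth and mitochondrial share differing as given above, and the part of these in the differences was not tested.

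*Ppp1r1a* stood at 18.4, 12.7, 28.9 and 21.2 CPM in granule nuclei of WT F1, F2, M1 and M2. In the V321L mice, in the same order, it stood at 357, 311, 298 and 406 CPM. All V321L mice lay above all WT mice, with a log2 change of 3.71 (SE 0.169, edgeR adjusted p = 1.77e-08).

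*Nrgn* had levels of 167, 105, 237 and 142 CPM in WT mice and 1644, 889, 792 and 1925 CPM in V321L mice. The groups did not overlap, and the V321L mice fell into a lower pair, F2 and M1, and a higher pair, F1 and M2. The libraries of F1 and M2 also differed from those of F2 and M1 in median UMIs per granule nucleus (3259 and 3283 against 4706 and 4520), in median mitochondrial share (0.865% and 1.08% against 0.301% and 0.555%) and in ATAC counts (8039952 and 6580616 against 18892690 and 25552769). The part of these in the split was not tested. The log2 change was 2.61 (SE 0.275, edgeR adjusted p = 2.9e-06). *Cnih2* gave 14.7, 6.92, 33.7 and 10.4 CPM in WT and 174, 123, 125 and 215 CPM in V321L mice, again without overlap, for a log2 change of 3.02 (SE 0.322, adjusted p = 3.15e-06).

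These 3 genes were also abundant in free RNA, and more so in V321L libraries. Free RNA was not a matter of these genes alone. Mean levels were higher in free RNA than in granule nuclei for 18 members in WT and 11 in V321L mice. Of all members, 4 were higher and 25 lower in free RNA of every V321L than of every WT library. The shares of all genes were not counted for these free RNA numbers, so they have no background and do not set the members apart. *Nrgn* made up 902 ± 191 CPM of the free RNA of WT and 4098 ± 599 CPM of that of V321L libraries, *Cnih2* 166 ± 78.0 and 775 ± 142 CPM, and *Ppp1r1a* 43.0 ± 13.5 and 589 ± 53.5 CPM (SD, n = 4 each). In oligodendrocyte nuclei, a class that should lack these neuronal genes, *Nrgn* was at 575 ± 243 CPM in V321L mice. *Ppp1r1a* was at 73.9 ± 43.9 CPM and *Cnih2* at 87.5 ± 53.7 CPM in the same nuclei. *Nrgn* was at 0 in 4 of 4 WT mice, but their oligodendrocyte sums held few UMIs, so this does not show that it was absent. In astrocyte nuclei the median of *Nrgn* was 48.7 CPM in WT and 573 CPM in V321L mice. When free RNA was taken as 15% of each granule sum and subtracted, the log2 changes were 4.44 for *Nrgn* and 3.81 for *Ppp1r1a*, and *Cnih2* was left below the filter on low counts and gave no value. The 15% was assumed, alike for both genotypes, and not estimated. Free RNA was at 5.54 times the granule level of *Nrgn* in WT and 3.12 times in V321L mice. For *Ppp1r1a* it was at 2.12 and 1.72 times. An equal share therefore takes more of the WT sum, which enlarges the log2 change. How much of the rise of these 3 genes lies in granule nuclei was not tested.

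Promoter values of the genotypes are given without a test, because peaks were called per library. In granule nuclei the promoter of *Ppp1r1a* held 58.8, 55.3, 52.8 and 60.8 ATAC CPM in WT mice and 67.6, 48.7, 53.7 and 65.8 in V321L mice, over 1461 to 1700 and 1268 to 1547 covered bases. The promoter of *Nrgn* held 40.1, 44.6, 36.3 and 37.5 ATAC CPM in WT and 62.9, 39.6, 31.6 and 64.1 in V321L mice. For both genes the V321L values lay on both sides of the WT values, with F1 and M2 high. These 2 libraries had 42140 and 36556 peaks, against 94282 and 130470 in V321L F2 and M1 and 61021 to 86955 in WT mice, and the part of this in the promoter values was not tested.

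*Homer3* rose from 6.79, 5.05, 7.89 and 5.92 CPM in WT to 22, 18.1, 17.7 and 20.6 CPM in V321L mice, without overlap (log2 change 1.21, SE 0.174, edgeR adjusted p = 3.63e-05). *Dlg4*, the main MAGUK of mature excitatory synapses, went from 37.7, 37.8, 46.8 and 41.2 to 95.2, 98.3, 86.3 and 98.3 CPM, a log2 change of 0.78 (SE 0.102, adjusted p = 1.56e-05). *Iqsec3* and *Baiap2* rose by 0.78 and 0.60. Free RNA held *Homer3* at 35.2 ± 10.9 CPM and *Dlg4* at 150 ± 20.8 CPM in V321L libraries (SD, n = 4). Both remained called when it was subtracted at the assumed 15%, at 1.85 and 1.12. For both genes the subtraction again took a larger part of the WT sum.

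*Dlg2* stood at 8568, 9469, 8302 and 8938 CPM in WT and at 4422, 4863, 5277 and 4441 CPM in V321L mice. Every V321L mouse lay below every WT mouse, and the log2 change was -1.33 (SE 0.148, edgeR adjusted p = 4.53e-06). *Shisa9*, the granule-enriched subunit, fell from 845, 1006, 917 and 875 CPM to 468, 519, 557 and 436 CPM. Its log2 change on the TMM scale was -1.32 (SE 0.132, edgeR adjusted p = 1.99e-06). *Cnksr2* fell from 1755, 1810, 1636 and 1726 CPM to 973, 1007, 1209 and 995 CPM, with a log2 change of -1.16 on the TMM scale (SE 0.131, edgeR adjusted p = 4.83e-06). The groups did not overlap for any of the 3 genes.

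*Shisa6* and *Magi2* had log2 changes of -1.13 and -1.10 on the TMM scale. *Lrrc7*, *Dlg1*, *Magi1*, *Trio* and *Dlgap2* had falls between 0.77 and 0.93, with log2 changes of -0.93, -0.86, -0.82, -0.81 and -0.77. *Dlgap1*, *Ppp3ca*, *Ppp1r9a* and *Kalrn* followed at -0.61, -0.61, -0.60 and -0.50, and *Iqsec1*, *Shank2*, *Cacng3* and *Cnih3* at -0.45, -0.40, -0.38 and -0.29. The calls of *Cacng3* (edgeR adjusted p = 0.043) and *Cnih3* (adjusted p = 0.031) were lost when single mice were left out: *Cacng3* without WT F2 or any V321L mouse, *Cnih3* without WT F1, WT F2, V321L F1, V321L M1 or V321L M2. *Dlg3*, *Dlgap3*, *Dlgap4*, *Shank1*, *Shank3*, *Homer2*, *Iqsec2*, *Cacng2* and *Cacng8* did not pass the test, with log2 changes between -0.21 (*Homer2*) and 0.25 (*Shank3*).

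**Figure D4:**
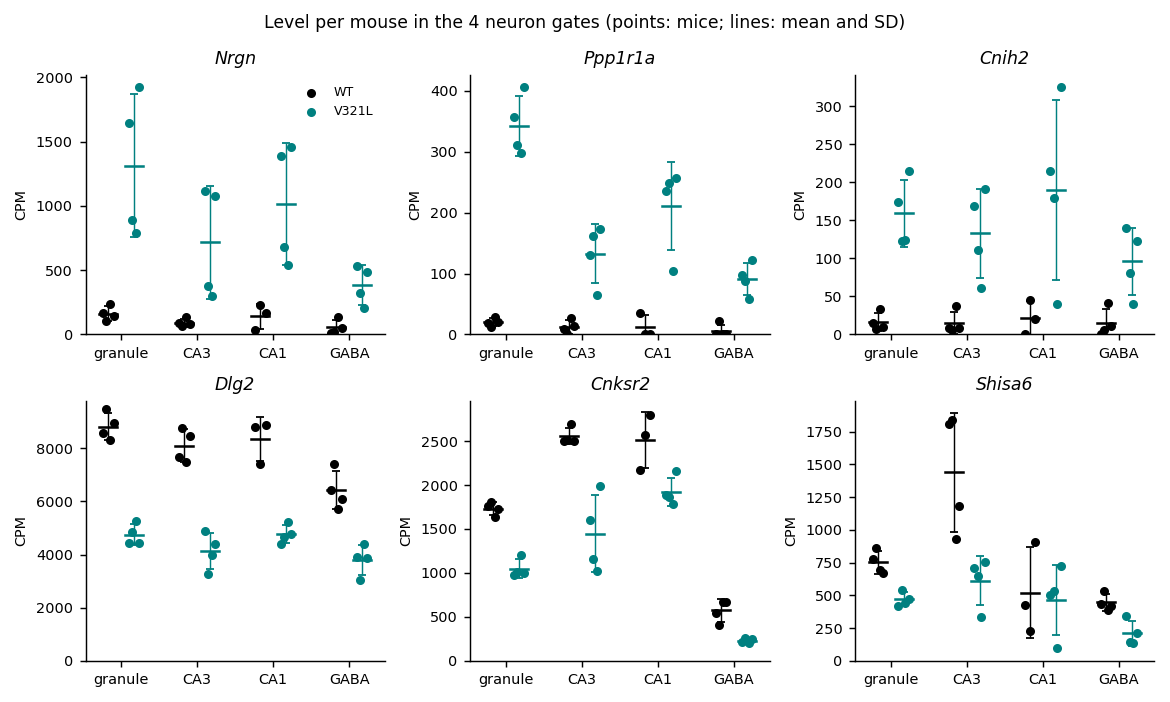
Level in CPM of 3 members that were higher and 3 that were lower in V321L granule nuclei, in all 4 gates. Each point is 1 mouse (WT black, V321L teal, 4 each, 3 WT mice in the CA1 type gate), and lines give the mean and SD; the V321L means of *Nrgn*, *Ppp1r1a* and *Cnih2* lie above and that of *Dlg2* below the WT means in each gate, of which *Ppp1r1a* and *Cnih2* were too low to be tested in GABAergic nuclei.

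The other gates were fitted in the same way. In CA3 type nuclei 7 of 33 tested members were higher and 7 lower, beside 25% and 18.2% of 5749 genes, with a median of -0.07 for members and 0.04 for all genes. *Ppp1r1a* (3.54), *Cnih2* (3.31), *Nrgn* (2.82), *Dlg4* (1.32), *Shank1* (1.15), *Iqsec3* (0.86) and *Baiap2* (0.75) were higher. *Shisa6* (-1.46), *Dlg2* (-1.19), *Cnksr2* (-1.03), *Magi2* (-0.93), *Dlgap2* (-0.86), *Lrrc7* (-0.72) and *Trio* (-0.55) were lower. The call of *Baiap2* was lost without any mouse but V321L F2 or V321L M1, and at 1000 UMIs per nucleus 3 members were higher and 1 lower.

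In GABAergic nuclei 5 of 25 tested members were higher and 7 lower, beside 17.7% and 11.8% of 3190 genes, with a median of -0.04 against 0.01. *Nrgn* (3.14), *Dlg4* (1.62), *Iqsec3* (1.45), *Shank1* (1.30) and *Dlgap4* (1.10) were higher. *Cnksr2* (-1.30), *Shisa6* (-1.06), *Dlg2* (-0.75), *Dlgap2* (-0.64), *Lrrc7* (-0.54), *Magi2* (-0.52) and *Dlgap1* (-0.46) were lower. *Nrgn* RNA in these nuclei, at 535, 319, 202 and 483 CPM in V321L mice, lay near its level in oligodendrocyte nuclei. Leaving out 1 mouse lost the calls of *Dlg4* (without any but WT M1 or V321L M2), *Dlgap4* (WT F1, WT F2, WT M2 or V321L F2), *Dlgap1* (WT F2, V321L F1 or V321L M2), *Magi2* (WT F2 or V321L F1) and *Lrrc7* (WT F2). At 1000 UMIs per nucleus edgeR called 0 members higher and 0 lower in this gate, with 0 and 2 at an unadjusted p under 0.05.

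In CA1 type nuclei 2 of 31 tested members were higher, *Ppp1r1a* (3.69) and *Nrgn* (3.02), and 1 was lower, *Dlg2* (-0.79, edgeR adjusted p = 0.0495), beside 4.93% and 0.741% of 3911 genes, with a median of 0.01 against 0.15. The CA1 type calls rest on 3 WT mice with few nuclei. Without any of these 3 all calls were lost, and without V321L F1, F2 or M2 those of *Ppp1r1a* and *Dlg2* were.

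Whether the genotype effect differed between gates was tested directly. None of the 34 members had an effect in CA3 type, CA1 type or GABAergic nuclei that differed from that in granule nuclei in the edgeR interaction test, where 0.0805%, 0.0644% and 0.0322% of 6210 genes were called. At an unadjusted p under 0.05 there were 3, 10 and 4 members of 34, beside 431, 885 and 521 of 6210 genes. *Shank1* was among them in each, with a log2 change larger than that in granule nuclei by 0.78, 0.91 and 0.75 (edgeR adjusted p = 0.261, 0.349 and 0.549). The median of this difference was 0.06, 0.54 and 0.16 over all genes, and 0.01, 0.44 and 0.19 over the members. Much of the CA1 type difference was thus shared by all genes. Without V321L M1, 1 member, *Cnksr2*, was called in the CA1 type contrast.

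The genotype difference of a member went with the length of its gene, meaning the genomic span from RefSeq (GRCm38.p6), introns included. *Cnih2* spans 5.65 kb, *Ppp1r1a* 7.75 kb, *Nrgn* 8.25 kb and *Homer3* 11.5 kb, and these 4 had the largest rises in granule nuclei. *Dlg2* spans 1973 kb and *Magi2* 1485 kb. Over the 34 members, which are not independent replicates and share the same libraries, Spearman's rank correlation between span and log2 change was -0.849 in granule nuclei, -0.794 in CA3 type (33 members), -0.798 in CA1 type (31) and -0.705 in GABAergic nuclei (25). Over all 11998 genes with a span, 95.3% of those tested in granule nuclei, it was -0.710. The values over all genes were -0.653 in CA3 type (5661 genes), -0.609 in CA1 type (3861) and -0.581 in GABAergic nuclei (3151).

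All genes tested in granule nuclei had a median log2 change of 0.90 for spans under 30 kb, -0.21 from 30 to 100 kb, -0.74 from 100 to 300 kb and -1.11 over 300 kb. Members in these classes had medians of 1.91 (6 members), 0.09 (7), -0.60 (11) and -0.79 (10). All 10 members over 300 kb had a negative value in granule nuclei, where 1.70% of the 528 genes of that class had a positive one. In free RNA *Dlg2* was at 2065 ± 424 CPM in WT and 286 ± 39.6 CPM in V321L libraries (SD, n = 4 each). Intron and exon reads were not separated in the matrices, so unspliced and spliced RNA cannot be told apart.

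**Figure D5:**
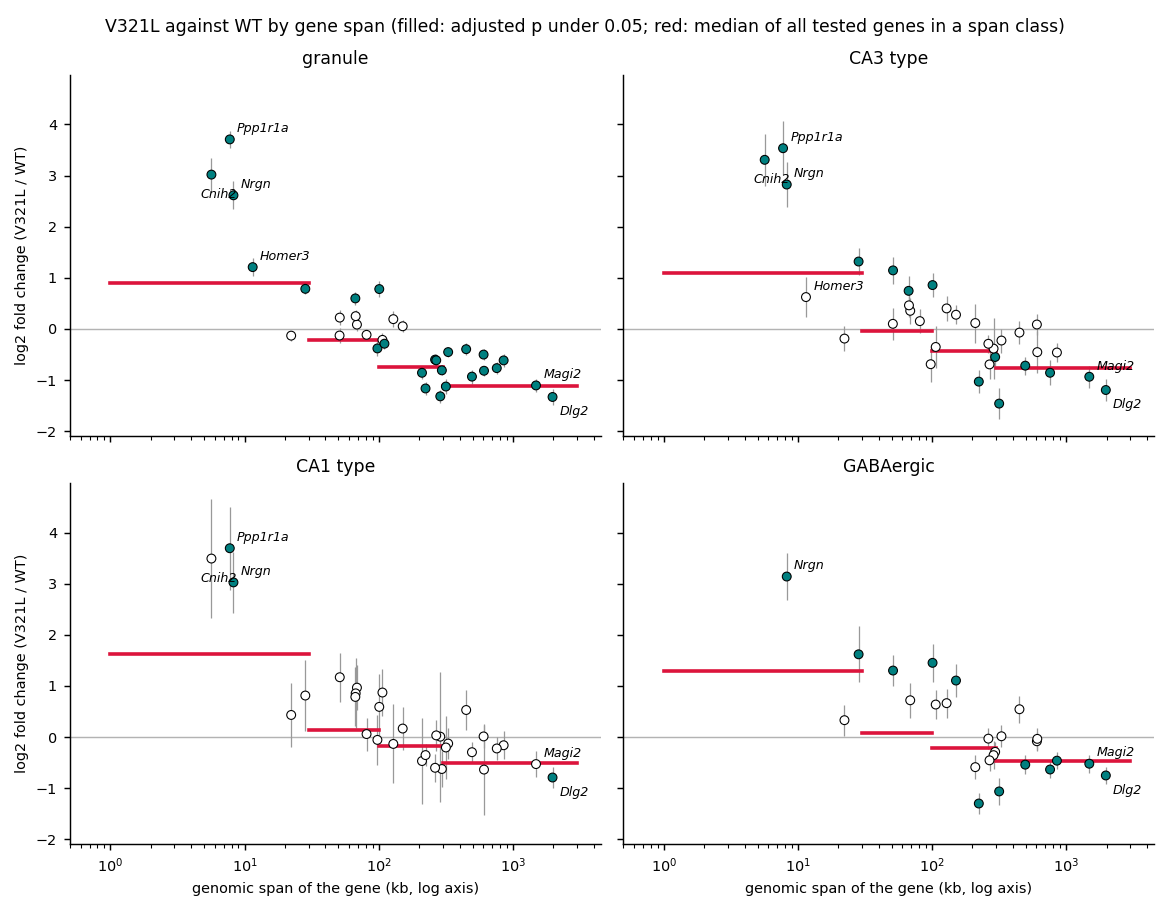
Log2 fold change of the members in V321L against WT mice (y axis, with standard errors) by the genomic span of the gene in kb (log x axis), 1 panel per gate. Filled points passed an adjusted p under 0.05, and red lines give the median of all tested genes in 4 span classes, which in granule nuclei falls from 0.90 to -1.11.

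Among the 54 other postsynaptic genes, 49 were tested in granule nuclei, of which 14 were higher and 22 lower in V321L mice. *Lin7b* (a small MAGUK partner, 4.22), *Synpo* (1.57) and *Begain* (1.31) had the largest log2 rises, and *Homer1* (-1.41), *Ctnnd2* (delta-catenin, -1.30) and *Magi3* (-1.25) the largest falls. In CA3 type nuclei 5 of 36 were higher, led by *Lin7b* (3.76), *Agap2* (1.4) and *Synpo* (1.37), and 12 lower, led by *Neto1* (-1.4), *Homer1* (-1.10) and *Rapgef2* (-1.10). In GABAergic nuclei 1 of 28 was higher, *Rasgrf1* (0.76), and 7 were lower, led by *Lin7a* (-1.11), *Homer1* (-0.99) and *Ppp3cb* (-0.93). In CA1 type nuclei 1 of 35 was called, *Arc*, at 0 CPM in 3 of 3 WT mice and 93.3 ± 39.4 CPM in V321L mice (SD, n = 4). The WT sums of that gate held only 22183 to 56188 UMIs, so 0 does not show absence. The standard error of the *Arc* fit was 33642800, which leaves its log2 change without a usable estimate.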

How the data were processed

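The authors prepared nuclei with a 10x Genomics isolation kit, made Multiome libraries and deposited, per library, matrices of raw UMI counts per gene and ATAC counts per peak written by Cell Ranger ARC 2.0.2. The submitters' processing notes name mm10, Seurat and Signac. These counts were used as deposited, for all barcodes.

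Nuclei had to exceed 500 UMIs and 250 genes, lie under the upper limits and the mitochondrial limit of the study's methods, and hold at least 500 ATAC counts in peaks. A nucleus entered a gate with at least 3 UMIs from 2 genes of that panel and at least 2 times the UMIs of each of the 11 other panels, which leaves out nuclei carrying markers of 2 types. No gate took 2673 nuclei (15.7%). *Adarb2* and *Ndst4* were dropped from the panels and *Erbb4* moved into one after marker levels were seen. A gate is a range on a score: 364 of 6989 WT and 65 of 4250 V321L granule nuclei, and 26 of 47 and 42 of 256 CA1 type nuclei, lay at its limit. A mouse with fewer than 10 nuclei in a gate gave no value there.

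UMIs were summed per mouse and gate and tested two-sided with edgeR 4.0.16 in R 4.3.3 (quasi-likelihood, TMM, filterByExpr, Benjamini-Hochberg over all genes tested, threshold 0.05). The comparison between gates and the interaction had mouse as a block. Tests were also run on simulated data. DESeq2 1.42.0 was the second tool. Sums per mouse held from 1899978 to 6011112 UMIs in granule nuclei, 117142 to 962485 in CA3 type and 71771 to 214860 in GABAergic nuclei. ATAC counts were summed over peaks within 1 kb of the first or last start site in the files. Matrices were read and summed in Python 3.11.15 with scipy 1.17.1. The members, lists and tests were chosen with earlier results of these data known. All members are named, with the 3 largest rises and falls among called genes of the list of other postsynaptic genes, of which 1 is not reported here. Nothing in the labels says whether mice of one genotype were littermates or handled together.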

Additional observations from a re-analysis of the deposited data

Results flagged for a closer look

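Levels of the 34 members were screened in each gate and genotype with 4 mice, which made 238 groups, for 1 mouse whose gap to the nearest of the other 3 exceeded Dixon's 95% critical value as a share of the whole range. This marked 16 groups, and chance marks about 1 in 20 groups. In granule nuclei WT M2 was low for *Cacng2* (22.2 CPM, the others 31.6 to 32.6), WT M1 was low for *Dlgap1* (3733 CPM, the others 3850 to 3857) and high for *Iqsec3* (31.6 CPM, the others 19.8 to 20.5), and V321L M1 was high for *Cnksr2* (1209 CPM) and *Ppp1r9a* (484 CPM). In CA3 type nuclei WT M1 was high for *Cnih2* (37.6 CPM, the others at most 8.33) and *Cnksr2* (2693 CPM), and WT F1 low for *Shisa9* (16.3 CPM). In the CA1 type gate V321L M1 was high for *Magi1* (395 CPM, the others 42.1 to 83.8) and low for *Ppp1r1a* (104 CPM, the others 235 to 256). In GABAergic nuclei V321L F1 was high for *Cacng2* (182 CPM), V321L M1 low for *Dlg3* (17.3 CPM), WT M1 high for *Dlgap3* (69.7 CPM), WT F2 high for *Magi2* (3134 CPM) and *Ppp1r1a* (21.4 CPM, the others at 0), and WT M2 low for *Trio* (333 CPM).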

How the results depend on the processing

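All alternatives except leaving out mice in the test between gates' genotype effects, which was added after the data were seen, were planned. In granule nuclei the counts of 7 higher and 18 lower members were within 1.5 times of these under RLE factors, DESeq2, no filter, sex as a covariate, a stricter gate, Scrublet, thinning, free RNA and a mitochondrial limit of 0.5%, and were 7 to 8 and 16 to 18 without single mice. Library size gave 14 higher and turned *Shank2* (0.04), *Iqsec2* (0.32), *Cacng3* (0.06), *Cacng8* (0.3) and *Cnih3* (0.15). *Dlg3* (0.3) and *Homer2* (0.23), called in neither fit, also turned. Replicate numbers did not pair the mice (correlations of 0.035, 0.259, -0.112 and 0.047 for F1, F2, M1 and M2). With the replicate number as a block, higher and lower members were 7 and 18 in granule, 6 and 7 in CA3 type, 3 and 0 in CA1 type and 4 and 4 in GABAergic nuclei. Thinning gave 3 and 1 members in CA3 type, 1 and 0 in CA1 type and 0 and 0 in GABAergic nuclei. Subtracting free RNA gave 4 higher members in CA3 type, 0 and 0 in CA1 type and 4 lower in GABAergic nuclei. In CA1 type nuclei sex as a covariate gave 0 and 0, and 0 were lower with no filter, without Scrublet nuclei and under the mitochondrial limit. The latter gave 3 higher and 4 lower in GABAergic nuclei, where library size gave 4 lower. Without single mice CA1 type nuclei gave 0 to 3 higher and 0 to 2 lower, and GABAergic nuclei 3 (without V321L F2) to 7 higher. Against CA1 type nuclei, 2 and 2 members were higher and lower in WT mice alone (*Dlgap3* turned, 0.07), 5 higher in V321L mice alone, 4 and 4 without the mouse block, 5 higher under the stricter gate and the mitochondrial limit, 5 and 2 when thinned, and 5 (without V321L M2) to 7 higher without single mice. Against GABAergic nuclei 13 were higher without the mouse block, 11 and 2 higher and lower when thinned, and 3 were lower than in CA3 type nuclei when thinned. The CA1 type interaction called 0 to 1 members without single mice. For promoters, windows of 200 bases gave 0 higher than in CA3 type, 1 lower than in CA1 type and 1 higher than in GABAergic nuclei. WT mice alone, and V321L mice alone, gave 0 higher than in CA3 type and 0 lower than in CA1 type, and V321L mice alone 2 higher than in GABAergic nuclei. Library size gave 2 lower than in GABAergic nuclei. Without single mice, 0 to 2 were higher and 0 to 1 lower than in CA3 type, and 1 to 2 lower than in CA1 type nuclei. Where these edgeR counts fell to 0, 0 to 6 members of that direction had an unadjusted p under 0.05. The stricter gate left too few nuclei for a CA1 type genotype value. The cause of these changes was not tested, other than the fewer samples, nuclei or genes that an alternative leaves. Shares of all genes called were counted for the main fits alone, so the member counts of the alternatives have no such background.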
